A study of Mus musculus with 4 samples.

Results

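The SR proteins and the heterogeneous nuclear ribonucleoproteins (hnRNPs) are the main families of RNA-binding proteins that set splice site choice. Their genes were taken as every row of the deposited table whose symbol was Srsf with a number, Hnrnp with a further letter, Tra2a or Tra2b, with 3 of the 35 matching rows left out (2 pseudogenes and 1 gene that is not reported here). That left 32 of 52192 genes, 13 in the SR and Tra2 family (11 Srsf genes, Tra2a and Tra2b) and 19 hnRNP genes. The level of a gene is given in TPM, a transcript abundance corrected for gene length and scaled to a fixed library total, so levels can be compared between genes.

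RNA was sequenced from AML12 cells, a hepatocyte line established from a mouse transgenic for TGF-alpha, after infection with a lentivirus carrying either a control hairpin (shCtrl, 2 libraries) or a hairpin against Safb (shSafb, 2 libraries). Both groups grew in DMEM/F12 medium with 10% fetal bovine serum, ITS supplement and 0.1 uM dexamethasone, a glucocorticoid. Both received 200 ul of virus, had a medium change at 24 h and were harvested on day 5 after infection. The labels name a single hairpin against Safb, do not say that replicates were separate cultures, and give no share of infected cells, and p-values therefore reflect only library-to-library spread, which may be technical. In bulk RNA, fewer cells expressing a gene and less of its RNA per cell cannot be told apart.

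SR proteins carry RNA recognition motifs and a tail rich in arginine and serine, bind exonic enhancers and mostly favour use of the neighbouring splice sites. Many hnRNPs coat nascent transcripts, bind silencer elements and often act against SR proteins at the same exon. SR transcripts are known for highly conserved poison exons that expose them to nonsense-mediated decay, and several hnRNP transcripts are controlled in the same way. Safb encodes scaffold attachment factor B, which associates with chromatin and RNA in the nucleus and, like the hnRNP UL proteins, contains a SAP domain.

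Safb was at 23.8 and 23.3 TPM in the shCtrl libraries and at 15.8 and 15.02 TPM in the shSafb libraries, a log2 change of -0.56 ± 0.07 (SE; limma adjusted p = 0.00411). Spearman's rho across tested genes was 0.990 and 0.989 within groups and 0.951 to 0.952 between them. All 8 hepatocyte markers reached a mean of 1 TPM. Their summed level was 9442 to 9488 TPM in shCtrl and 13235 to 13408 TPM in shSafb, with Trf higher and Alb and Apoa1 lower. Cholangiocyte markers (3 of 4 at 1 TPM or more) summed to 539 to 567 TPM against 904 to 908 TPM, with Krt19 higher, Sox9 lower and Epcam at 0 in 3 of the libraries. Leukocyte and macrophage markers summed to 116 to 121 TPM against 64.7 to 66.9 TPM, nearly all of it Cd14, with Ptprc at most 0.452 TPM and Adgre1 at 0. Stellate and endothelial markers stayed at or under 3.10 TPM in sum. The part of these marker differences in the results was not tested.

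Of the 32 genes, 31 had a mean of at least 1 TPM and were tested, while Srsf12 was listed at 0 in all 4 libraries. The changes were mostly small and mostly upward. In shSafb 12 of the 31 were higher and 5 lower (limma on log2(scaled TPM + 1), Benjamini-Hochberg adjusted p under 0.05), or 54.8% called in either direction against 44.3% of all 13111 tested genes. The background was 21.9% for higher and 22.4% for lower calls. Among the 8295 tested genes with a mean of at least 10 TPM, as 30 of the 31 had, 50.2% were called, 24.7% higher and 25.5% lower. Both values of 1 group lay outside those of the other in 22 of 31 cases (71.0%), against 74.7% of all tested genes and 77.6% of those at 10 TPM or more. Of the 31, 3 (9.68%) were called with a change of at least 1.5-fold, namely Srsf10, Srsf4 and Hnrnpd, against 20.7% of all tested genes and 18.7% of those at 10 TPM or more. The median log2 change was 0.16 over the 31 genes and 0.00 over all tested genes, and 25 of the 31 changes were above 0, as were 6576 of 13111.

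Of the 12 tested SR and Tra2 genes 4 were higher and 1 lower, with a median log2 change of 0.13, and of the 19 hnRNP genes 8 were higher and 4 lower, with a median of 0.20. The difference between the families was not tested. The 31 tested genes had a median GC content of 43.6% and a median exonic length of 5710 bases. Tested protein-coding genes had 49.7% and 4491 bases. After removal of a trend on GC content and exonic length, the median log2 changes were 0.03 for SR and Tra2 genes and 0.12 for hnRNP genes. With that trend removed, 7 of the 17 calls were lost. These were Srsf3 (adjusted p = 0.651), Tra2a (0.0783), Hnrnpa0 (0.0550), Hnrnpa1 (0.0515), Hnrnpab (0.102), Hnrnph1 (0.317) and Hnrnpll (0.351). Only 4 of the 17 called genes, Srsf10, Srsf4, Hnrnpul1 and Hnrnpr, stayed called without each library in turn and under all 12 alternatives that gave a test.

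**Figure D1:**
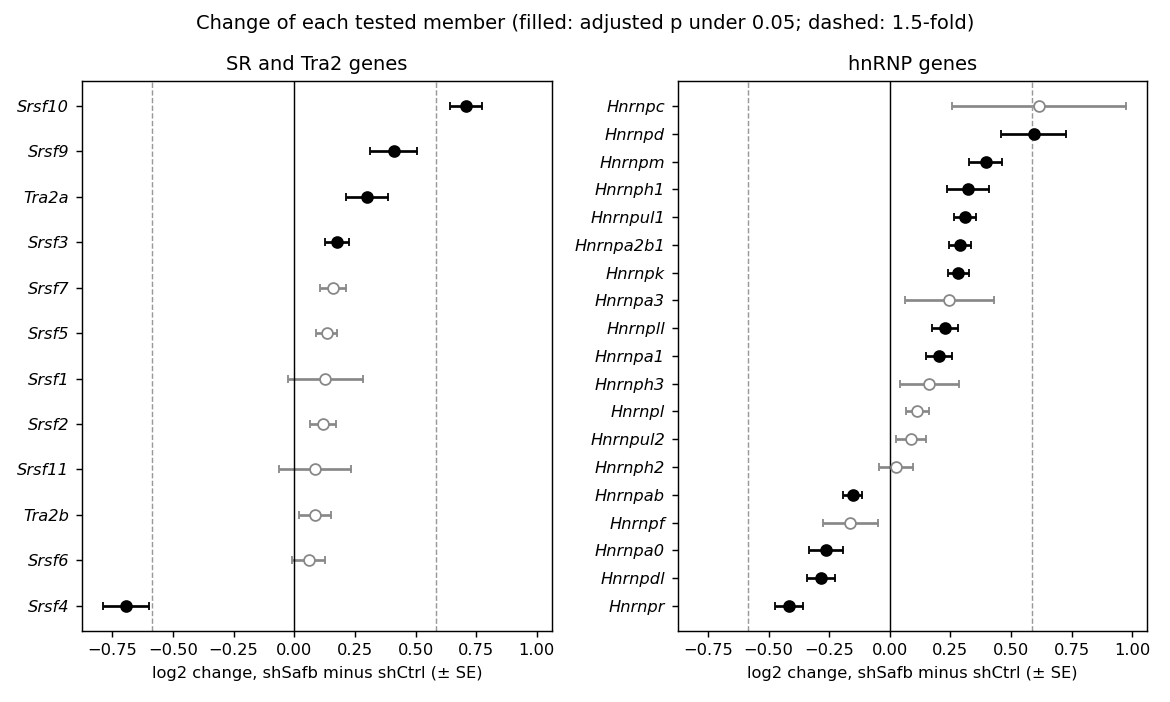
Log2 change (shSafb minus shCtrl, x axis, on the log2(scaled TPM + 1) scale) with its limma standard error for the 12 tested SR and Tra2 genes and the 19 hnRNP genes. Filled points passed an adjusted p of 0.05 and dashed lines mark a 1.5-fold change. Srsf10 at 0.71 and Srsf4 at -0.69 are the outermost SR genes, and Hnrnpc has the widest error.

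The promoters of those 4 genes are shown because theirs were the calls that held under every alternative with a test, which include leaving out each library. The 1.5-fold threshold is not among these, and Hnrnpul1 and Hnrnpr did not reach it. Each window runs from 250 bases before to 50 bases after the RefSeq start (GRCm38.p6), 5′ to 3′ along the gene, and for Srsf4 and Hnrnpr it is the most upstream of several. Capitals mark matches on either strand to the motifs searched: the CCAAT box by these letters, the GC box as GGGCGG, the TATA box as TATAAA, the ETS motif as CCGGAAG, the E-box as CACGTG, the CRE as TGACGTCA, the E2F motif as TTTCCCGC, and the longer NRF1 and YY1 motifs. GC box and E2F motif matches can overlap, as they do in Srsf10 and Hnrnpul1.
Srsf10 (chr4:135855821-135856120, plus strand): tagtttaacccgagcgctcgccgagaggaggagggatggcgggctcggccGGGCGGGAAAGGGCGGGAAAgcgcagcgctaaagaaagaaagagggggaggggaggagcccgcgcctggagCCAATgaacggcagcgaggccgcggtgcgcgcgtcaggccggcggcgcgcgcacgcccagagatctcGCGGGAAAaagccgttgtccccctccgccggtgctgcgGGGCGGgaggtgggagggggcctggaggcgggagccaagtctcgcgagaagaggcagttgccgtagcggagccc
Srsf4 (chr4:131873387-131873686, plus strand): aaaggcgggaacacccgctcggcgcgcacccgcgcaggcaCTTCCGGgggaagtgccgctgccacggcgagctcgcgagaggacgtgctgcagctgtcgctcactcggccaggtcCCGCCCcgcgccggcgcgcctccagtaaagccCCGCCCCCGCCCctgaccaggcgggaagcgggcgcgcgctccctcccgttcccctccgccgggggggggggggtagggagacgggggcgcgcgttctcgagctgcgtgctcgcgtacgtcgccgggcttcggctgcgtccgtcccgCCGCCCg
Hnrnpul1 (chr7:25754710-25755009, minus strand): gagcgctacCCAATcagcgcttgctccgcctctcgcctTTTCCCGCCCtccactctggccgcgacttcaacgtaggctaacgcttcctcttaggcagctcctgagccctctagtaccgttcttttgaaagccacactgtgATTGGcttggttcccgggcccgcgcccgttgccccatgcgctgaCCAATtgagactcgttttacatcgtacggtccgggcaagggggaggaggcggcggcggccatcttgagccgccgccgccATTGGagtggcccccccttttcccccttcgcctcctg
Hnrnpr (chr4:136310692-136310991, plus strand): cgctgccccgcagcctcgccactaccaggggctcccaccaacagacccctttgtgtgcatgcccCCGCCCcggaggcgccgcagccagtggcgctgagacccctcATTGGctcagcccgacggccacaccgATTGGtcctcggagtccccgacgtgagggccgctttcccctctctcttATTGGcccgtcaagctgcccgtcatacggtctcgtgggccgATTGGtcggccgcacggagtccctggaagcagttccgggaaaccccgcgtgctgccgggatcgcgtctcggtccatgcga

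A window was found for 30 of the 32 genes, with a median of 28 CG dinucleotides against 7 over all 32851 windows. All 13 SR and Tra2 genes had a window, and of the 19 hnRNP genes Hnrnpll and Hnrnpul2 had 0. Because some genes have several windows, motif shares were counted per gene, with a match in any window. Genes with more windows therefore had more chances of a match. The 30 genes had 42 windows, and the 27025 genes of the background had 32851. The GC box was present for 25 of 30 genes (12 SR or Tra2 and 13 hnRNP) against 38.2% of 27025 genes. The CCAAT box was present for 18 of 30 (5 SR or Tra2 and 13 hnRNP) against 41.1%. The E2F motif was present for 5, Srsf1, Srsf10, Tra2b, Hnrnpr and Hnrnpul1, against 1.24% of genes. The match of Hnrnpr lies in its second window (chr4:136311348-136311647), not in the one printed. Of these 5, Srsf10 and Hnrnpul1 were higher, Hnrnpr was lower, and Srsf1 and Tra2b were not called. The ETS motif was present for 6 of 30 against 9.93% and the E-box for 5, all hnRNP genes, against 8.09%. The TATA box was present for 4 (15.7% of genes), and the NRF1 motif (1.07%) and CRE (2.03%) for 1 each. The YY1 motif was in 0 of the windows (0.755% of genes). A match is only a run of these letters, and CG-rich windows hold more GC-rich runs.

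Srsf10 encodes an SR protein that turns into a general splicing repressor when it is dephosphorylated. It was at 22.9 and 22.8 TPM in the shCtrl libraries and at 38.6 and 36.2 TPM in the shSafb libraries. Both shSafb values lay above both shCtrl values, and the mean rose from 22.9 ± 0.0807 to 37.4 ± 1.71 TPM (SD, n = 2 each), 1.63-fold. The log2 change was 0.71 ± 0.06 (SE; limma adjusted p = 0.00227), the largest rise among the called SR, Tra2 and hnRNP genes of the 31 tested. The gene (ENSMUSG00000028676) lies on chromosome 4 from 135855747 to 135869908, plus strand (mm10). Its closest relative in the family, Srsf12, was at 0 throughout. Srsf10 also has 2 near-identical annotated pseudogenes elsewhere, with up to 3.38% of its TPM.

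Srsf4 belongs with Srsf5 and Srsf6 to the SR proteins that carry a pair of RNA recognition motifs and a long arginine-serine tail. It was at 14.4 and 14.0 TPM in shCtrl and at 8.83 and 7.69 TPM in shSafb, without overlap. The mean fell 1.72-fold, from 14.2 ± 0.260 to 8.26 ± 0.803 TPM (log2 change -0.69 ± 0.09, limma adjusted p = 0.00599). It was the only SR gene called lower. The gene (ENSMUSG00000028911) lies on chromosome 4 from 131873617 to 131901706, and its exons share 1532 bases with Gm12992 in the other orientation. If counting ignored strand, reads of the pair cannot be told apart. Neither relative was called. Srsf5 was at 187 and 172 TPM in shCtrl and at 192 and 194 TPM in shSafb (log2 change 0.13 ± 0.04, limma adjusted p = 0.0644). Srsf6 was at 125 and 108 TPM against 120.5 and 117 TPM, with overlap (0.06 ± 0.07, adjusted p = 0.515). Within the summed TPM of these 3 genes, the share of Srsf4 was 4.41% and 4.77% in shCtrl and 2.75% and 2.42% in shSafb.

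Srsf9 and Srsf1 are close relatives, and Srsf1 is the founding SR protein, which binds purine-rich enhancers. Srsf9 was at 34.4 and 30.3 TPM in shCtrl and at 45.6 and 39.4 TPM in shSafb. Both shSafb values were the higher ones, and the log2 change came to 0.41 ± 0.10 (limma adjusted p = 0.0259). The Srsf9 call did not hold when shCtrl replicate 1 was left out (adjusted p = 0.0571), shCtrl replicate 2 (0.1004), or shSafb replicate 1 (0.0860), or with no filter on low genes (range over alternatives 0.0175 to 0.1004). Srsf1 was at 38.5 and 50.7 TPM in shCtrl and at 48.0 and 47.1 TPM in shSafb, so the shCtrl values lay on either side of the shSafb values (0.13 ± 0.15, limma adjusted p = 0.535). Without shCtrl replicate 2 it was called higher (0.35, limma adjusted p = 0.0310), while without shCtrl replicate 1 the change was -0.10.

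The small SR proteins of Srsf3 and Srsf7 are also known as adaptors for mRNA export. Srsf3 was at 113 and 112 TPM in shCtrl and at 128 and 122 TPM in shSafb (0.18 ± 0.05, limma adjusted p = 0.0431). Srsf7 was at 60.2 and 57.6 TPM against 66.6 and 62.8 TPM (0.16 ± 0.05, limma adjusted p = 0.0714). Neither pair of groups overlapped, and the share of Srsf3 in their sum was 65.2% to 66.0% in all 4 libraries. The Srsf3 call was lost without each library in turn (adjusted p = 0.0833 to 0.189) and held under 1 of 12 alternatives, the smaller pseudocount (0.0444 to 0.651 over all). Srsf3 also has 3 near-identical annotated genes elsewhere, with up to 7.14% of its TPM.

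Srsf2, long used as a marker of nuclear speckles, was with Srsf5 the most abundant SR gene, at 178 and 186 TPM in shCtrl and at 193 and 195 TPM in shSafb (0.12 ± 0.05, limma adjusted p = 0.142). Its exons overlap Mettl23 and Mfsd11 on the opposite strand. Srsf11 was at 54.7 and 63.0 TPM in shCtrl and at 54.1 and 69.4 TPM in shSafb, so the shSafb values enclosed the shCtrl values (0.09 ± 0.15, limma adjusted p = 0.675). Tra2a and Tra2b encode SR-like activators that bind GAA-rich exonic enhancers. Tra2a was at 42.2 and 46.3 TPM in shCtrl and at 51.5 and 56.0 TPM in shSafb (0.30 ± 0.09, limma adjusted p = 0.0470). Tra2a was no longer called without shCtrl replicate 1 (adjusted p = 0.131), shSafb replicate 1 (0.0836) or shSafb replicate 2 (0.168), and was made under 4 of 12 alternatives (0.0309 to 0.168). Tra2b was at 49.8 and 50.4 TPM against 54.3 and 50.3 TPM, with overlap (0.08 ± 0.07, limma adjusted p = 0.340).

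**Figure D2:**
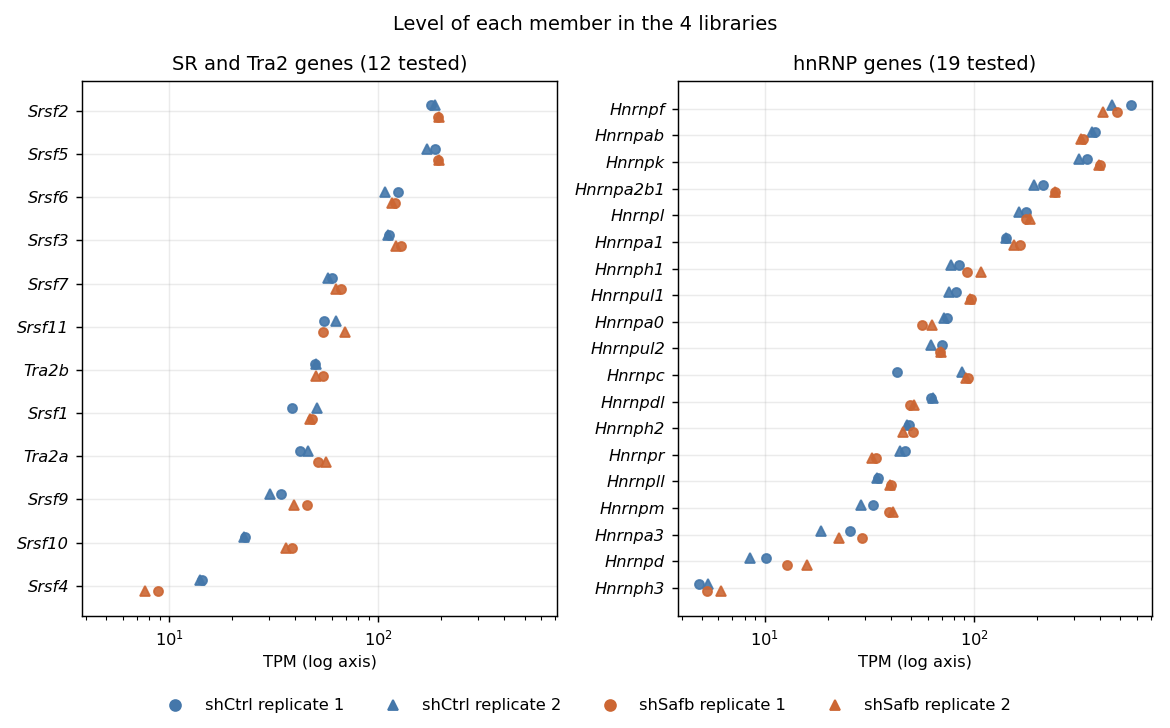
TPM (log axis) of each of the 31 tested genes in the 4 libraries, shCtrl in blue and shSafb in orange, with replicate 1 as circles and replicate 2 as triangles, ordered by the shCtrl mean. Srsf10 and Srsf4 have clearly separated colours, and Hnrnpc has 1 shCtrl library at 42.7 TPM away from the other 3 at 88.0 to 93.7 TPM.

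Summed over the family, SR and Tra2 genes came to 919 and 912 TPM in shCtrl and to 1001 and 996 TPM in shSafb. The hnRNP genes came to 2438 and 2271.5 TPM in shCtrl and to 2468 and 2403.5 TPM in shSafb, where the groups overlapped. The ratio of the hnRNP sum to the SR and Tra2 sum was 2.65 and 2.49 in shCtrl and 2.46 and 2.41 in shSafb. The values of the ratio did not overlap, but the shCtrl libraries differed by more than the gap between the groups.

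Hnrnpr encodes a relative of the mRNA-binding protein SYNCRIP. It was at 46.7 and 44.2 TPM in shCtrl and at 34.1 and 32.4 TPM in shSafb, with both shSafb values below. The mean fell from 45.4 ± 1.83 to 33.2 ± 1.20 TPM, 1.37-fold (log2 change -0.41 ± 0.06, limma adjusted p = 0.00608), the largest fall among the hnRNP genes. The gene (ENSMUSG00000066037) lies on chromosome 4 from 136310942 to 136359447, 441034 bases beyond the end of Srsf10, which changed in the opposite direction. Its exons share 715 bases with Gm27022 on the opposite strand.

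Hnrnpul1 encodes a SAP domain hnRNP. Its levels were 82.0 and 76.0 TPM in shCtrl and 96.6 and 96.0 TPM in shSafb, with both shSafb values above. The mean rose from 79.0 ± 4.22 to 96.3 ± 0.421 TPM (log2 change 0.31 ± 0.05, limma adjusted p = 0.00767). The gene (ENSMUSG00000040725) lies on chromosome 7 from 25721165 to 25754757, minus strand. Hnrnpul2, its relative, was at 70.4 and 62.1 TPM in shCtrl and at 69.0 and 69.2 TPM in shSafb, with overlap (0.09 ± 0.06, limma adjusted p = 0.294). Exons of Hnrnpul2 share 360 bases with AC129217.1 on the same strand, so its level is uncertain, as is a share that rests on it. The share of Hnrnpul1 in their sum was 53.8% and 55.0% in shCtrl and 58.3% and 58.1% in shSafb.

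In the A group, whose proteins bind exonic and intronic silencers, members moved in both directions. Hnrnpa2b1 was at 213 and 194 TPM in shCtrl and at 244 TPM in both shSafb libraries (0.29 ± 0.05, limma adjusted p = 0.00865), a call lost only without shSafb replicate 1 (0.0522). Hnrnpa1 was at 142 TPM in both shCtrl libraries and at 166 and 156 TPM in shSafb (0.20 ± 0.05, limma adjusted p = 0.0377), a call lost without each library in turn (0.0630 to 0.163) and made under 3 of 12 alternatives. Hnrnpa0 was the member that fell, from 73.9 and 71.9 TPM to 56.3 and 63.0 TPM (-0.26 ± 0.07, limma adjusted p = 0.0359). Hnrnpa0 was no longer called without shCtrl replicate 1 (0.0984), shCtrl replicate 2 (0.110) or shSafb replicate 1 (0.125), with no filter, or without the intensity trend. Its share of the group's summed TPM was 16.3% and 16.9% in shCtrl and 11.4% and 13.0% in shSafb. Hnrnpa3 was at 25.6 and 18.6 TPM against 29.0 and 22.5 TPM, with overlap (0.25 ± 0.18, limma adjusted p = 0.323). Reads of Hnrnpa1 and Hnrnpa3 could be shared with 8 and 20 near-identical annotated genes elsewhere, nearly all pseudogenes, with up to 19.7% and 19.1% of the member's TPM, so both values are uncertain to that extent.

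The AB and D group holds Hnrnpd, whose product AUF1 binds AU-rich elements and is known for promoting mRNA decay. Hnrnpd was at 10.1 and 8.46 TPM in shCtrl and at 12.8 and 15.9 TPM in shSafb. Its mean rose 1.54-fold (log2 change 0.59 ± 0.13, limma adjusted p = 0.0242). Leaving out shCtrl replicate 1 (0.0517), shCtrl replicate 2 (0.0928) or shSafb replicate 2 (0.0797), or applying no filter, ended the call. Its relatives were lower. Hnrnpdl was at 62.3 and 63.8 TPM in shCtrl and at 49.7 and 51.9 TPM in shSafb (-0.28 ± 0.06, limma adjusted p = 0.0185), which was no longer called when shCtrl replicate 2 (0.0635), shSafb replicate 1 (0.0905) or shSafb replicate 2 (0.0586) was left out. Hnrnpab was at 377 and 368 TPM against 332 and 326 TPM (-0.15 ± 0.04, limma adjusted p = 0.0314), a call lost without each library in turn (0.0682 to 0.169) and made under 5 of 12 alternatives. None of these 3 genes overlapped between groups. Exons of Hnrnpab share 809 bases with Phykpl, and those of Hnrnpd 385 bases with Gm17092, on the opposite strand. The share of Hnrnpd in their sum was 2.25% and 1.92% in shCtrl and 3.23% and 4.03% in shSafb.

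The F and H group binds runs of G. Hnrnpf, the most abundant of the 32 genes, was at 562 and 457 TPM in shCtrl and at 481 and 412 TPM in shSafb, with overlap (-0.16 ± 0.11, limma adjusted p = 0.301). Near-identical genes elsewhere, all 6 of them pseudogenes, held up to 16.6% of its TPM, and its exons share 410 bases with 4933440N22Rik and 396 with Gm43863 on the opposite strand. Hnrnph1 was at 85.0 and 77.9 TPM in shCtrl and at 92.6 and 108 TPM in shSafb, without overlap (0.32 ± 0.09, limma adjusted p = 0.0395). It was no longer called without shCtrl replicate 1 (0.0917), shCtrl replicate 2 (0.136) or shSafb replicate 2 (0.104, with the change at 0.21) and held under 2 of 12 alternatives (0.0254 to 0.317). Hnrnph2 was at 48.8 and 47.9 TPM against 50.9 and 45.9 TPM, with overlap. Hnrnph3 was the least abundant detected member, at 4.85 to 6.15 TPM, with overlap. In the group's summed TPM, Hnrnph1 held 12.1% and 13.2% in shCtrl and 14.7% and 18.9% in shSafb.

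**Figure D3:**
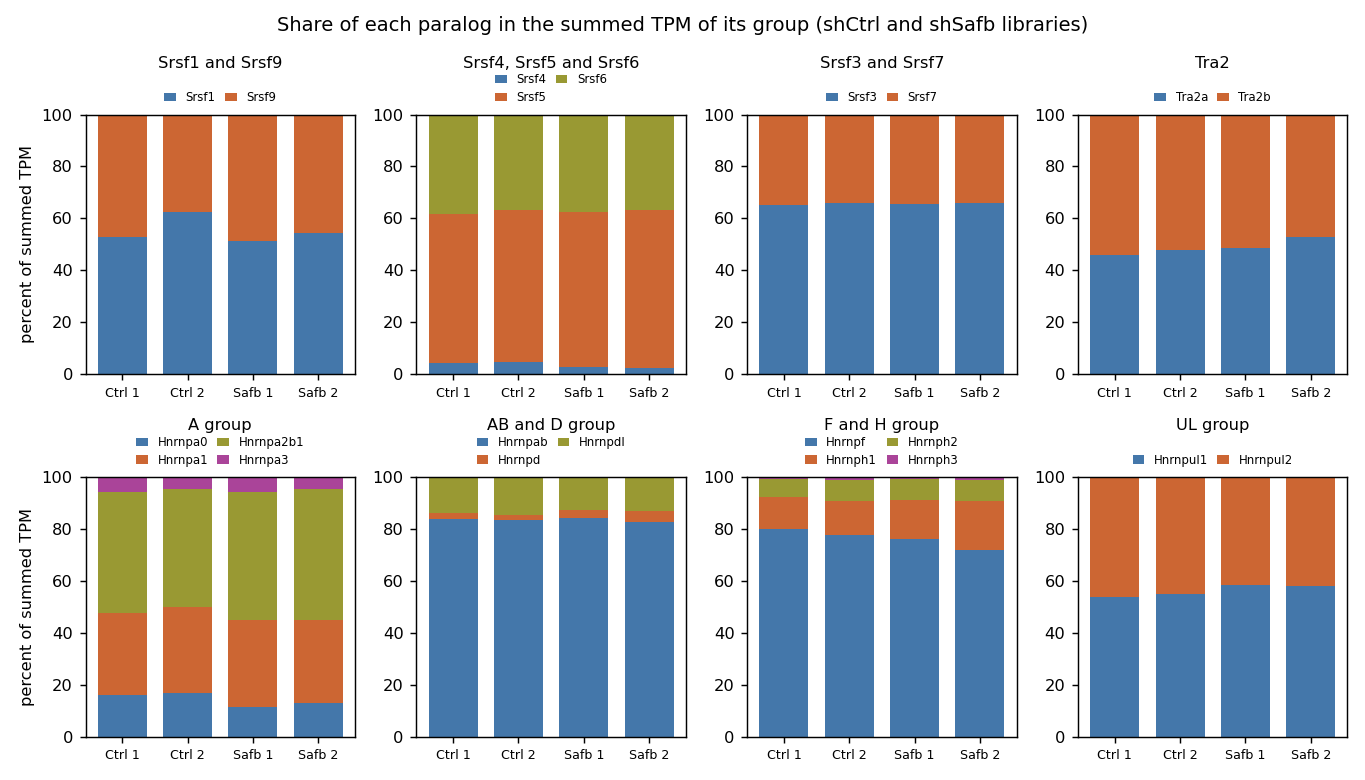
Share of each gene in the summed TPM of its paralog group (percent, y axis) in each shCtrl and shSafb library, for 8 groups, 1 bar a library. Srsf3 and Srsf7 keep their proportion, while the share of Hnrnpul1 is 53.8% and 55.0% in shCtrl and 58.3% and 58.1% in shSafb.

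Among the remaining hnRNP genes, Hnrnpk, whose product binds C-rich RNA and DNA through KH domains, was at 348 and 319 TPM in shCtrl and at 399 and 396 TPM in shSafb (0.28 ± 0.04, limma adjusted p = 0.00807). Its call was lost only without shSafb replicate 1 (0.0529). Exons of Hnrnpk share 330 bases with Rmi1 in the other orientation, with the same uncertainty as for Srsf4. Hnrnpm was at 32.8 and 29.0 TPM in shCtrl and at 39.3 and 41.1 TPM in shSafb (0.40 ± 0.07, limma adjusted p = 0.0113), a call lost only without shSafb replicate 2 (0.0578). Exons of Hnrnpm share 1169 bases with March2 on the same strand, so its value is uncertain. Hnrnpl, whose product binds CA repeats, was at 176 and 164 TPM in shCtrl and at 176 and 186 TPM in shSafb (0.11 ± 0.05, limma adjusted p = 0.117). Its relative Hnrnpll was at 34.6 and 34.4 TPM against 40.0 and 39.8 TPM (0.23 ± 0.05, limma adjusted p = 0.0265), a call lost without each library in turn (0.0618 to 0.115) and made under 6 of 12 alternatives.

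Hnrnpc, whose product binds uridine tracts and measures transcript length for export, rested on 1 library. It was at 42.7 and 88.0 TPM in shCtrl and at 93.7 and 91.8 TPM in shSafb. The groups did not overlap, but the shCtrl libraries differed more from each other than shCtrl replicate 2 did from either shSafb library (log2 change 0.61 ± 0.36, limma adjusted p = 0.226). Without shCtrl replicate 2 the gene was called higher (1.15, limma adjusted p = 0.00720), and without shCtrl replicate 1 the change was 0.07 (adjusted p = 0.375).

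Many of these genes have annotated transcripts of the decay class, though the deposited values do not separate transcripts. In GENCODE mouse release 21 at least 1 transcript of the nonsense-mediated decay class was listed for 11 of 12 tested SR and Tra2 genes and for 9 of 19 tested hnRNP genes, against 30.0% of 11235 tested protein-coding genes. Transcripts with a retained intron were listed for 23 of 31 against 60.3%. The median number of transcripts was 7 for the 31 genes against 5. Of the 4 genes called under all 12 alternatives that gave a test, Srsf4 had 2 such decay transcripts, Hnrnpr had 1, and Srsf10 and Hnrnpul1 had 0. A TPM per gene sums productive and decaying transcripts, so a changed level cannot be assigned to either.

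Other genes of the splicing machinery were read from 8 lists holding 122 genes, 119 of them tested, of which 37 were higher and 11 lower in shSafb. Among all tested genes 21.9% were higher and 22.4% lower. Removing the trend on GC content and length ended the higher calls of Clk1, Clk4, Srek1, Rsrc2, Rbm5, Rbm25, Snrpb2, Prpf18 and Cdc40. The lower calls were kept. Under that setting Ptbp1 and Smg8 became called higher, and Srpk2 and Elavl1 lower. Kinases that phosphorylate SR proteins were higher in 3 of 9 tested cases and lower in 0 (median log2 change 0.01). With the GC and length trend removed, only Dyrk1a of these stayed called higher. Srpk2 was then called lower (log2 change -0.30, limma adjusted p = 0.0356). The Dyrk1a call itself held under only 3 of 12 alternatives. It was lost when genes down to 0.1 TPM were tested, with no filter, with unscaled TPM and with a replicate block. Dropping mitochondrial and small RNA genes also ended the Dyrk1a call, as did leaving out any single library. Clk1, a kinase that phosphorylates SR proteins in the nucleus, rose from 85.6 ± 3.11 to 104 ± 4.04 TPM (0.31 ± 0.05, limma adjusted p = 0.00985), a call that leaving out shSafb replicate 1 or removing the trend on GC and length ended (up to 0.112). Of the 3 import receptors, 0 were higher and 2 lower (median -0.19). Tnpo3, which carries SR proteins into the nucleus, fell from 77.1 ± 0.412 to 66.3 ± 1.75 TPM (-0.19 ± 0.05, limma adjusted p = 0.0362). The Tnpo3 call held under 6 of 12 alternatives. It was lost without the intensity trend, with a replicate block and without each library in turn. Tnpo2 fell from 29.6 ± 2.55 to 20.8 ± 0.322 TPM (-0.46 ± 0.07, limma adjusted p = 0.00777) under all 12 alternatives. Tnpo1, the receptor for hnRNP A1, was at 101 and 47.8 TPM in shCtrl and at 91.5 and 113 TPM in shSafb (limma adjusted p = 0.239) and was called higher only without shCtrl replicate 1 (0.0195).

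Of 24 SR-related genes, 9 were higher and 3 lower (median 0.16). Luc7l2, which encodes a U1 snRNP-associated protein, rose from 56.1 ± 0.263 to 99.5 ± 3.15 TPM, and Rsrc1 fell from 13.7 ± 0.364 to 5.12 ± 1.10 TPM, 2.68-fold. Of 11 hnRNP genes under other symbols, 4 were higher and 0 lower (median 0.23). Rbmx, the gene of hnRNP G, rose from 29.1 ± 1.67 to 48.7 ± 1.06 TPM. Of 21 other splicing regulators, 5 were higher and 4 lower (median 0.03), with Mbnl2, a muscleblind gene, up from 51.1 ± 2.93 to 80.0 ± 2.11 TPM and Celf2 down from 12.4 ± 1.09 to 7.31 ± 0.731 TPM. The limma adjusted p was 0.00102 for Luc7l2, 0.00388 for Rsrc1, 0.00146 for Rbmx, 0.00157 for Mbnl2 and 0.00837 for Celf2, and these 5 were called under all 12 alternatives.

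Of 21 genes of the U1 and U2 snRNPs and Sm proteins, 5 were higher and 1 lower (median 0.09). Snrpf, an Sm protein gene, rose from 17.4 ± 0.320 to 26.9 ± 0.403 TPM (limma adjusted p = 0.00258), and Phf5a, of the U2 snRNP, fell from 73.3 ± 1.51 to 58.7 ± 0.0865 TPM (0.0152), a call lost without either shSafb library (up to 0.0698). Of 20 genes of the tri-snRNP and the catalytic steps, 9 were higher and 0 lower (median 0.17). Prpf3, a tri-snRNP gene, rose from 9.91 ± 1.33 to 14.4 ± 1.58 TPM (limma adjusted p = 0.0236), which was not called without shCtrl replicate 2, without shSafb replicate 2 or with no filter (up to 0.0929). Of 10 nonsense-mediated decay factors, 2 were higher and 1 lower (median 0.01). Smg1, the kinase of that pathway, rose from 30.7 ± 1.40 to 48.8 ± 1.52 TPM (limma adjusted p = 0.00175), while Upf1, its central helicase, fell from 38.7 ± 2.98 to 29.3 ± 1.11 TPM (0.0136), which was not called without shCtrl replicate 1 or without shSafb replicate 2 (up to 0.0662).

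**Figure D4:**
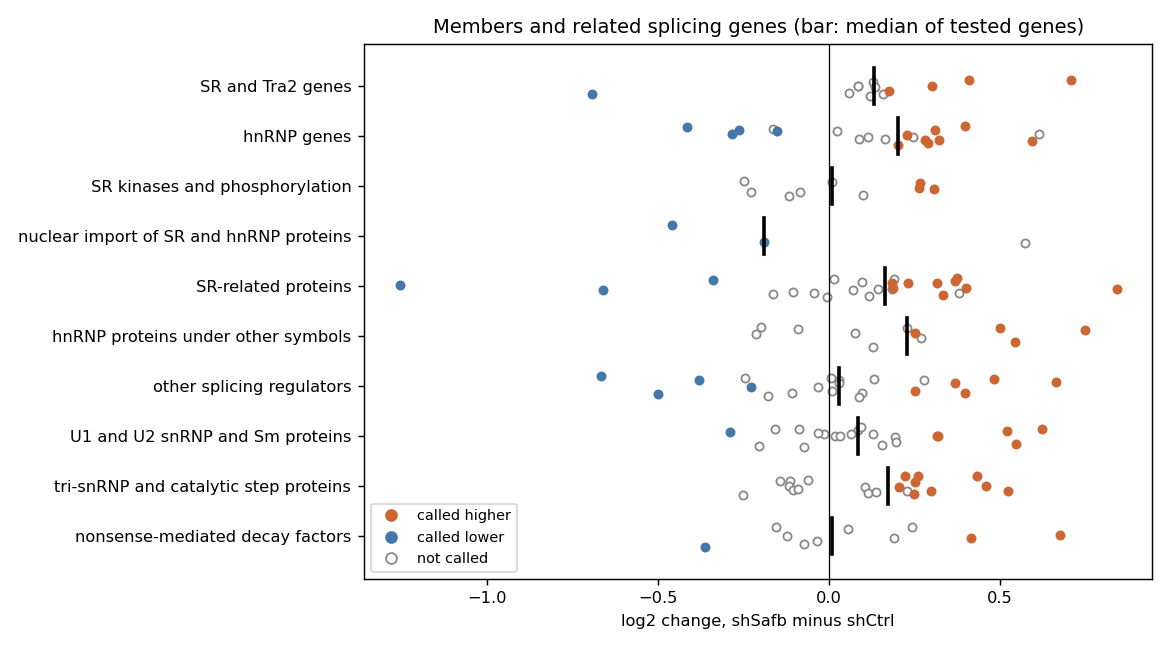
Log2 change (shSafb minus shCtrl, x axis) of each tested gene among the SR and Tra2 genes, the hnRNP genes and the 8 lists of related genes (y axis), coloured by call, with a bar at each median. Medians run from -0.19 for the 3 import receptors to 0.23 for hnRNP proteins under other symbols.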

How the data were processed

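Deposited values are TPM per gene and library, made by the authors from rRNA-depleted, strand-specific libraries per the labels' protocols. The submitters' processing notes name mm10 and, without versions or roles, HISAT2, HTSeq, StringTie and DESeq2. They do not say whether counting used strand. TPM keeps no counts, so the depth behind a value is unknown.

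Rows of the 6 repeated identifiers were added up, and coordinates came by identifier from GENCODE mouse release 21 (GRCm38), which holds 52045 of 52192. The 13111 genes averaging 1 TPM or more were tested with limma on log2(scaled TPM + 1), after scaling by the median ratio to the geometric mean (factors 0.991 to 1.03), with group as the only term, an intensity trend and a two-sided test (residual degrees of freedom 2, prior 2.61), adjusted over all tested genes. Exact permutation of 2 against 2 libraries cannot reach 0.05 and was not used. A log2(TPM + 1) change understates changes of low genes. Near-identical copies were BLAST matches of at least 95% identity over 200 bases. The limma step was tested on simulated data (5 draws), with normal noise and changes planted in 200 of 13111 genes. It called a mean of 54.7% of 1.5-fold, 89.8% of 2-fold and 99.2% of 4-fold changes, so smaller changes can go uncalled. A mean of 7.30% of its calls were false, so a call can also be wrong. In the deposited data 5805 genes were called, far more than were planted, so these rates may not hold there.

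The members, lists, motifs and tests were chosen with earlier results of these data known. Every member could be named, and of each list the called genes with the largest rise and fall, and all of a list of 3. List genes whose call changed with the GC and length trend removed, and Dyrk1a, were named afterwards. The background of genes at 10 TPM or more was added after seeing the data. The symbol Qki was read as Qk, its name in the annotation. Alternatives covered pseudocount, filter, scaling, variance trend, replicate block, GC and length, a fold threshold and leaving out each library. R 4.3.3, limma 3.58.1, BLAST 2.17.0, Python 3.11.15, pandas 2.3.3 and matplotlib 3.10.9 were used.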

Additional observations from a re-analysis of the deposited data

How the results depend on the processing

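Over 13 alternatives, 316 of 403 results for single SR, Tra2 and hnRNP genes stayed on their side of the threshold, 85 were no longer called, 2 became called, and 0 called genes changed sign. All 85 lost results belong to the 17 genes called in the main test. The 316 also count the 14 genes not called there, which mostly just stayed uncalled, so the pooled share overstates how stable the calls were. In 10 of the 403 the sign differed for genes not called in either case (Srsf1, Srsf6, Srsf11, Tra2b and Hnrnph2). SR and Tra2 genes lower stayed at 1 under every alternative. SR and Tra2 genes higher (4) came to 2 when genes down to 0.1 TPM were tested, when mitochondrial and small RNA genes were dropped, without the intensity trend and after removing the GC and length trend, and to 1 with no filter and with a 1.5-fold threshold. The hnRNP genes higher (8) came to 5 with no filter, with a replicate block and after removing the GC and length trend, and to 1 with the fold threshold. The hnRNP genes lower (4) came to 2 without the intensity trend and after removing the GC and length trend, and to 0 with the fold threshold, with which 1303 of all tested genes were higher and 1408 lower. Leaving out each library gave 1 to 3 SR and Tra2 genes higher, 3 to 5 hnRNP genes higher, 1 to 2 hnRNP genes lower, 1754 to 2151 of all tested genes higher and 1970 to 2161 lower. Each such fit has fewer samples. For the other settings the cause was not tested.

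The labels give both groups replicate numbers 1 and 2 but no shared batch, and same-numbered libraries did not deviate together (correlation across genes -0.06). With the replicate block 3 SR and Tra2 genes and 5 hnRNP genes were higher, 1 and 3 lower, and 2540 of all tested genes higher and 2686 lower. Rsrc2, called higher among the SR-related genes, changed sign with the GC and length trend removed (-0.0146, no longer called).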
